A study of Mus musculus with 14 samples.

Results

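Chromosome 15 carried more TSS-distal H3K4me3 peaks and more enhancers per Mb than any other mouse autosome in these lists, and it was selected for that reason, so its densities are a description and support nothing on their own. All regions of the 2 deposited lists that lay on chromosome 15 were taken. These were 1336 H3K4me3 peaks and 1803 enhancers, or 3139 of 58396 regions, and the whole lists held 25431 peaks and 32965 enhancers. A peak was called a promoter peak when its centre lay within 1 kb of a transcription start site (TSS) of any GENCODE transcript, and a distal peak otherwise. Of the peaks on chromosome 15, 705 were promoter peaks and 631 were distal peaks.

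The study mapped trimethylated lysine 4 of histone H3 by ChIP-seq in iMEF cells, which are immortalised mouse embryo fibroblasts, to follow the mark after loss of ASH2L. All cells had both floxed Ash2l alleles inactivated through an inducible Cre-ER and lived on a human ASH2L fused to FKBP12F36V and 2 HA tags, which was delivered by a lentivirus, and clones were grown out by limiting dilution. The labels describe 12 H3K4me3 libraries in 6 groups of 2 replicates, namely cells with no dTAG and cells given dTAG for 30 min, 2 h, 4 h, 8 h or 16 h, plus 1 input from untreated and 1 input from 16 h dTAG cells. dTAG recruits a ubiquitin ligase to the FKBP part, so that the fusion protein is degraded. The peak list is a union over all libraries and the enhancer list was defined in control cells, and neither holds a value per sample. From these lists no replicate error and no depth per library could be given, changes between times were not analysed here, a peak may come from any of the groups, and every interval below is a Wilson 95% interval that covers counting error only. Regions are not replicates of a condition, and chromosomes were compared by ranges with no test.

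H3K4me3 is deposited by the COMPASS/KMT2 methyltransferases, of which ASH2L is a core subunit. It sits mainly at active and CpG-rich promoters, where broad domains are known from genes that control cell identity and growth, whereas enhancers usually carry H3K4me1 and little H3K4me3. Chromosome 15 holds Myc, a transcription factor gene that drives growth, beside the long non-coding RNA gene Pvt1. It also holds Rspo2, whose secreted product strengthens Wnt signalling, and the Hoxc cluster, whose homeobox factors set position along the body axis.

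Stretches from 4 peaks are given as examples of CpG content, and single peaks do not stand for their kind. The following stretches of 300 bases are from the GRCm38.p6 reference, plus strand, 5′ to 3′, with CpG dinucleotides in capitals. The Myc stretch is the centre of its peak in the first intron (chr15:61986162-61986461). The stretches labelled by Col22a1 (chr15:72340440-72340739) and Fam19a5 (chr15:87283220-87283519) are from the 2 windows of 1 Mb with the most distal peaks. They are the centres of the widest distal peak in each window. Both are examples of the narrow distal peaks described below and were chosen after their values were seen. Neither lay in a gene body, and their nearest TSSs were those of Gm23217 (85133 bp away) and A930027H12Rik (39819.5 bp away). The Hdac7 stretch (chr15:97830225-97830524) is the centre of the widest distal peak of the chromosome, in an intron.
Myc promoter peak: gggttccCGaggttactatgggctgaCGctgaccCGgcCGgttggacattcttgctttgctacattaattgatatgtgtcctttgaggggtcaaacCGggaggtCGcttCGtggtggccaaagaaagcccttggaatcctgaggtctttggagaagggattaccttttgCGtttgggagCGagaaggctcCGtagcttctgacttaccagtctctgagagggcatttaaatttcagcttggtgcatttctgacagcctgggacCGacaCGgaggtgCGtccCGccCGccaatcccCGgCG
Distal peak upstream of Col22a1: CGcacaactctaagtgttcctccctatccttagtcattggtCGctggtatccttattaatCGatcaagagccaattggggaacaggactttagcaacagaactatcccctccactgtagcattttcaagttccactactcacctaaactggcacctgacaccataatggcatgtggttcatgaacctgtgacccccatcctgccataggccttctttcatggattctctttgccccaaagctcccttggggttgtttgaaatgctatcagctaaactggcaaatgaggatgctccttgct
Distal peak upstream of Fam19a5: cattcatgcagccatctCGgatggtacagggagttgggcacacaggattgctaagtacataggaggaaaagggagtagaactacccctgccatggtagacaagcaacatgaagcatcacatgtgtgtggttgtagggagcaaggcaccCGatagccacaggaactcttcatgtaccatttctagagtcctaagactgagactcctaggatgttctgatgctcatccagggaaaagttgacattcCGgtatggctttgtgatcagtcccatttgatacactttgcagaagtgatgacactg
Hdac7 distal peak: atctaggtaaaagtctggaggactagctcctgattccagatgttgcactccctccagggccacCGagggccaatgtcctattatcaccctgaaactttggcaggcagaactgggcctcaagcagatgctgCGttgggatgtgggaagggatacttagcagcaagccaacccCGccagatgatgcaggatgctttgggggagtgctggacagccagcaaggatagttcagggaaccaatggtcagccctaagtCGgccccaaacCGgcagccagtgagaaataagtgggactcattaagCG
The Myc stretch held 17 CpGs. The stretches labelled by Col22a1 and Fam19a5 held 3 each, and the Hdac7 stretch held 6. Promoter peaks varied, and the 300 bases around the centre of the wide Kmt2d promoter peak held 3.

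A distal peak and an enhancer show the AP-1 motif TGANTCA, the site of the FOS and JUN factors, in capitals.
Pvt1 distal peak: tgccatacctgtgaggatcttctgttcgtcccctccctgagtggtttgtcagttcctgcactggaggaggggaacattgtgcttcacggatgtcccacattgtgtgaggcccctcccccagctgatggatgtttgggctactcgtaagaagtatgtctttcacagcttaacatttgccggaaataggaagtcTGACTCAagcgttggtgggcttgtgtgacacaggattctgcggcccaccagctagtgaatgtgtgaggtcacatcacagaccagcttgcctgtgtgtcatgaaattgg
Rspo2 enhancer: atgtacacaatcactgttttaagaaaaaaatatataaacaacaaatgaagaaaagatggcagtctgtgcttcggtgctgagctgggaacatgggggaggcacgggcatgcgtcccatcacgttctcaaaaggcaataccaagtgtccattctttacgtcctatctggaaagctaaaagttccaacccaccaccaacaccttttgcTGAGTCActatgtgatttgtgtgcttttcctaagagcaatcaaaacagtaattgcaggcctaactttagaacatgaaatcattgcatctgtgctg
The Pvt1 stretch (chr15:62049373-62049672) is the centre of the widest distal peak inside Pvt1. The Rspo2 stretch (chr15:43133127-43133426) is the centre of the enhancer nearest to the Rspo2 TSS, in an intron. Each held 1 match. The stretches printed above for their CpGs (Myc, Col22a1, Fam19a5 and Hdac7) held 0 matches. The Pvt1 and Rspo2 stretches were chosen by position and width, not for the motif.

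Distal peaks numbered 6.06 per Mb on chromosome 15, while the 18 other autosomes held 2.18 to 3.99, with chromosome 10 the highest. Promoter peaks were ordinary at 6.78 per Mb, with 10 autosomes above and 8 below. Distal peaks made up 47.2% of the peaks (631 of 1336, interval 44.6 to 49.9%), against 25.1 to 36.3% on the other autosomes and 29.6% over all of them. There were 0.895 distal peaks for each promoter peak, against 0.335 to 0.569 elsewhere. Chromosome 15 is 104.04 Mb long and was not rich in genes, with 785 protein-coding genes or 7.54 per Mb, a density that 10 autosomes exceeded.

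Enhancers reached 17.3 per Mb, against 10.8 to 16.4 per Mb, again with chromosome 10 next. The lead of chromosome 15 was small for enhancers and large for distal peaks, and its 2.86 enhancers per distal peak was the lowest ratio of any autosome, where the others ranged from 3.41 to 5.89. In width and in share within introns, the enhancers lay within the range of the other autosomes. Their median width was 406 bp, against 365 to 465.5 bp, and 45.5% lay in introns of protein-coding genes, against 40.7 to 53.9%. A further 10.8% (interval 9.41 to 12.3%) lay in other genes, against 7.72% on the other autosomes together. Their median distance to a TSS was 17.2 kb, against 8.46 to 16.2 kb, while 40.1% were intergenic, beside 40.2% on the other autosomes together.

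**Figure D1:**
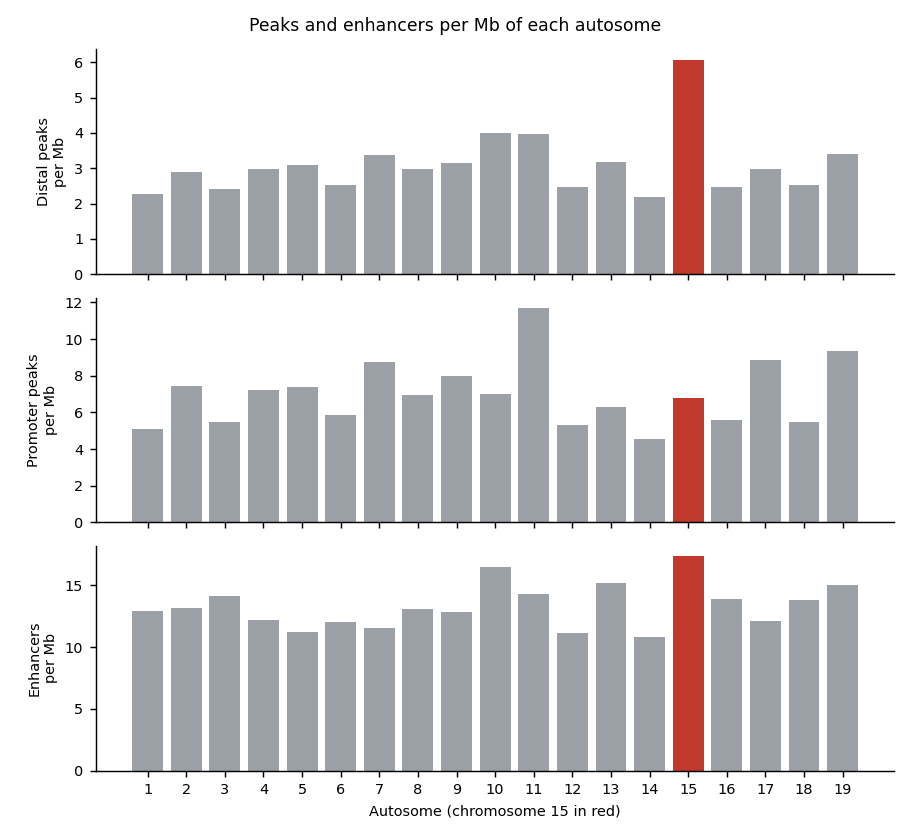
Distal peaks, promoter peaks and enhancers per Mb of chromosome length, gaps included (y axes) on each of the 19 autosomes (x axis), with chromosome 15 in red. Its distal peaks (6.06 per Mb) stand clear of every other autosome (at most 3.99), its enhancers (17.3) lie just above chromosome 10 (16.4), and its promoter peaks (6.78) lie mid-range.

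The distal peaks of chromosome 15 were narrower, farther from TSSs and poorer in CpGs than those of other autosomes by their medians. The median width was 248 bp (quartiles 206 and 357.5 bp), below the medians of all 18 other autosomes, which ran from 271 to 346 bp. The shortest width in the list, 200 bp, was that of 126 of the 631, or 19.97% (interval 17 to 23.3%), against 8.31 to 17.5% elsewhere. The promoter peaks of chromosome 15 did not share this. At a median of 1023 bp they were wider than on any other autosome (868 to 1005 bp), and 1.70% of them were 200 bp wide.

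By position, the median distal peak on chromosome 15 lay 14.4 kb from the nearest TSS, against medians of 3.66 to 7.27 kb, and 61.2 kb from the nearest promoter peak, against 7.27 to 34.8 kb. Intergenic sequence held 318 of them (50.4%), introns of protein-coding genes 234 (37.1%), their exons 27 (4.28%) and other genes 52 (8.24%). Of the 300 bases around each centre, a median of 3 dinucleotides were CpG, where the other autosomes had medians of 4 to 6, and promoter peaks on chromosome 15 had 16. A CpG island, called here from the sequence, overlapped 8.40% of distal peaks (53 of 631, interval 6.48 to 10.8%) and 73.2% of promoter peaks. The promoter value lay within the 67.9 to 80.1% of the other autosomes, and the distal value was exceeded by 16 of the 18.

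Few of these distal peaks coincided with an enhancer. An overlap of at least 1 base was found for 96 of 631, or 15.2% (interval 12.6 to 18.2%), the lowest share of any autosome, where the others ranged from 18.5 to 31.1%. Seen from the enhancers, 91 of 1803 (5.05%) overlapped a distal peak, which lay beside the 5.02% of all other autosomes together. The 96 peaks on enhancers had a median width of 368.5 bp and a median of 7 CpGs, while the 535 off enhancers had 243 bp and 3 CpGs.

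When the distal peaks were divided by width, distance and overlap, the surplus of chromosome 15 was spread unevenly over the classes, as the plot of distal classes shows. These classes were formed after the values were seen. Peaks under 500 bp numbered 5.22 per Mb (1.69 to 3.27 elsewhere), whereas peaks of at least 500 bp numbered 0.846 per Mb, with 3 autosomes above. Peaks 1 to 3 kb from a TSS, at 1.39 per Mb, were exceeded by 2 autosomes. Those 3 to 10 kb away, at 1.22 per Mb, lay above every other autosome (0.472 to 1.03). Distal peaks in protein-coding genes, at 2.51 per Mb, did so too (1.11 to 2.16). Peaks over 10 kb from a TSS reached 3.45 per Mb (0.719 to 1.71). Peaks over 50 kb away reached 1.19 per Mb, which is 5.06 times the median of the other autosomes. Peaks on enhancers, at 0.923 per Mb, were exceeded by 2 autosomes, and peaks off enhancers reached 5.14 per Mb (1.69 to 3.06).

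**Figure D2:**
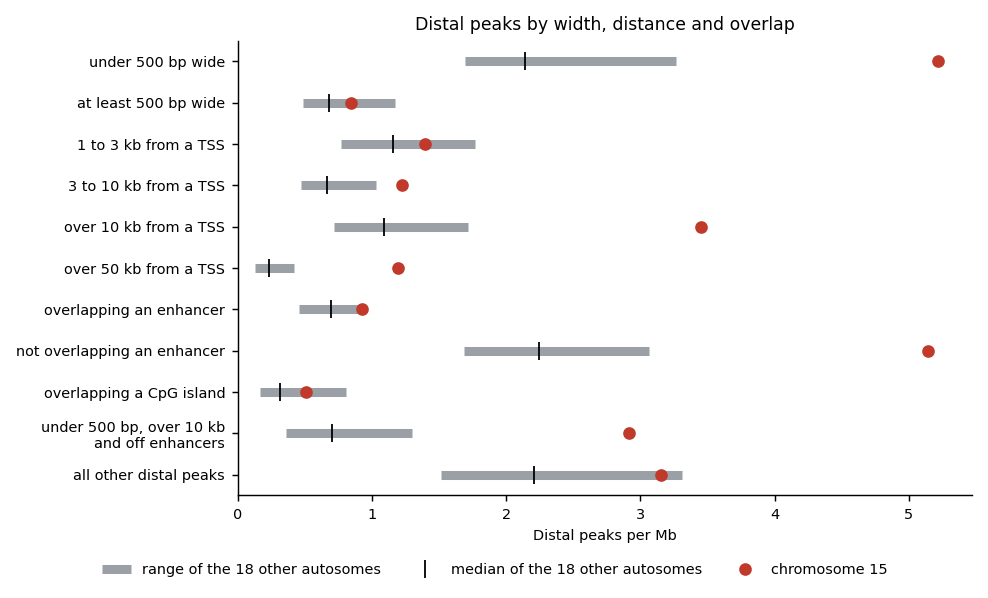
Distal peaks per Mb (x axis) in classes of width, distance to the nearest TSS and overlap (y axis). Red points are chromosome 15, grey bars the range and black ticks the median of the 18 other autosomes; the red point lies beyond the bar for peaks under 500 bp (5.22 per Mb) and over 10 kb from a TSS (3.45), and inside it for peaks of at least 500 bp (0.846) and on islands (0.509).

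Peaks that were under 500 bp, over 10 kb from a TSS and off enhancers counted 303, or 48.0% of the distal peaks, against 25.1% on the other autosomes. They numbered 2.91 per Mb, against 0.356 to 1.30, or 4.15 times the median of the other autosomes. The remaining 328 distal peaks numbered 3.15 per Mb, against 1.51 to 3.31, with only 1 autosome above. That was 1.43 times the median of the others, so chromosome 15 was high outside this class too. The 303 peaks varied little in base composition, with a median GC content of 48.3% and quartiles of 47.0 and 49.7%. The quartiles of this class were 2.67 percentage points apart, against 2.08 to 5.67 on the other autosomes, of which 1 had a smaller distance. For the enhancers of chromosome 15 the quartiles were 45.0 and 50.7%.

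The 18 peaks whose centres lay between 900 and 1000 bp from a TSS had a median width of 604 bp, and the 15 peaks between 1000 and 1100 bp had 880 bp. The 3 widest distal peaks lay not far beyond this limit and each contained a TSS. They lay at Hdac7, a histone deacetylase gene (3881 bp at chr15:97828434-97832314, centre 1095 bp from a TSS), at Josd1, a deubiquitinase gene (3826 bp at chr15:79684695-79688520, centre 1311.5 bp from a TSS), and at Itga5, a fibronectin receptor subunit gene (3475 bp at chr15:103363888-103367362, centre 1123 bp from a TSS). The 3 widest promoter peaks lay at Arid2, a gene of a SWI/SNF remodelling complex (4921 bp at chr15:96284635-96289555), at Myc (4380 bp) and at Kmt2d, which encodes a catalytic subunit of a COMPASS/KMT2 complex (4326 bp at chr15:98868488-98872813).

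In 300 bases around distal centres, the AP-1 motif was found on either strand in 76 of 631 peaks, or 12.04% (interval 9.73 to 14.8%), against 6.82 to 10.7% on the other autosomes. It was found in 23.1% of the enhancers of chromosome 15, within the 20.3 to 24.1% elsewhere, and in 3.69% of its promoter peaks. The NF-Y motif CCAAT was found in 36.9% of distal peaks (26.4 to 33.2% elsewhere), the E-box CACGTG in 4.28% (1.75 to 6.4%) and the EGR1 motif GCGTGGGC in 0 of 631, where the others ranged from 0 to 1.84% and the interval reaches 0.605%. Searching the whole of each peak instead gave 6.82% for the E-box and 0.634% for EGR1. Among enhancers, the EGR1 motif was found in 0.166%, below the 0.217 to 0.896% of the other autosomes. EGR1 and CACGTG letters contain CpGs and the other motifs do not, and CpGs were scarce in these peaks. Matches are a description of the letters, not of binding.

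Along the chromosome, distal peaks were dense in most windows. Of the windows of 5 Mb, numbered from the start of the chromosome, 19 were of full size with under 50% assembly gap. Their median was 5.6 distal peaks per Mb, against 2.5 in 446 such windows of the other autosomes. Of the 19, 17 exceeded that median and 13 exceeded the upper quartile of 4. For promoter peaks only 5 of 19 exceeded the median of the others, and for enhancers 13 did. None of the 19 exceeded the densest window elsewhere, which held 20.4 distal peaks per Mb.

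The part from 65 Mb onwards held the 5 windows with the most distal peaks. The highest count was 64 (12.8 per Mb) at 85 to 90 Mb, followed by 54 at 65 to 70 Mb, 53 at 95 to 100 Mb, 51 at 75 to 80 Mb and 50 at 70 to 75 Mb. The fewest among the full windows, 6, lay at 20 to 25 Mb, in a window with 3 protein-coding genes. Promoter peaks ranged from 2 at 45 to 50 Mb to 130 at 75 to 80 Mb. Enhancers ranged from 14 at 15 to 20 Mb to 159 at 60 to 65 Mb, the window of Myc. That window held 15 distal peaks, or 3.0 per Mb, somewhat above the median of 2.5 in the windows of the other autosomes.

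**Figure D3:**
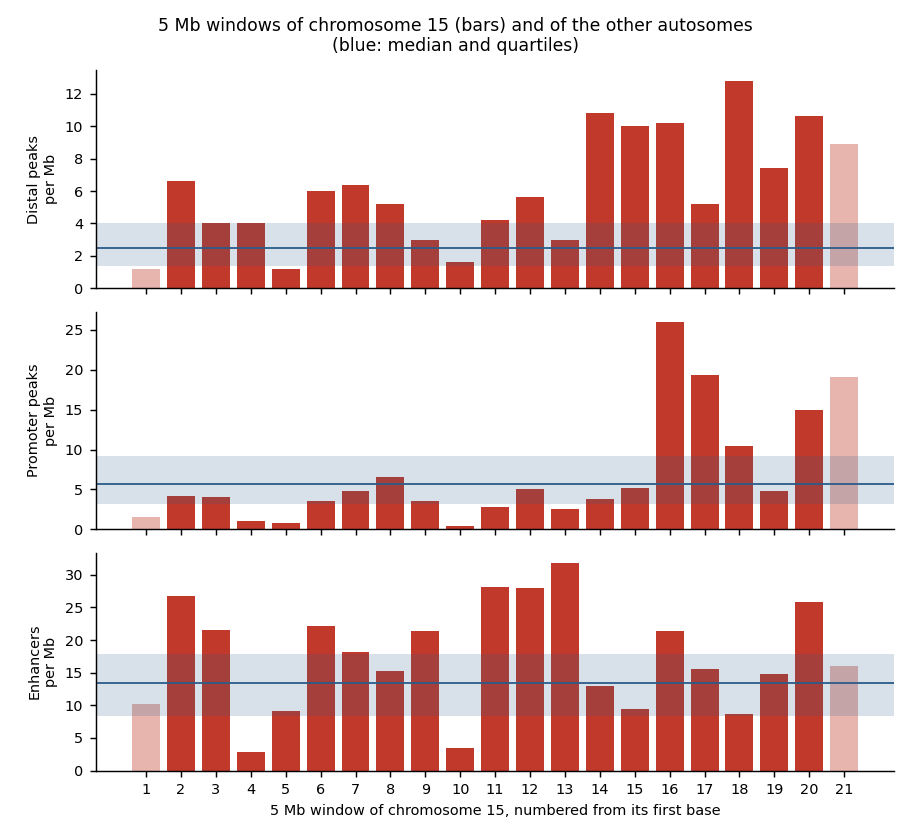
Distal peaks, promoter peaks and enhancers per Mb (y axes) in the 5 Mb windows of chromosome 15 (x axis, in order along the chromosome); the pale bars are a window of 61% gap and the short last window, and the blue line and band are the median and quartiles of 446 windows of the other autosomes. Most distal bars rise above the band (13 of 19 full windows), promoter bars do so in 4, and the windows with the most enhancers (31.8 per Mb in window 13) are not those with the most distal peaks (12.8 per Mb in window 18).

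Counts of distal peaks and of enhancers did not rise together over the windows. Over the 19 windows, the rank correlation of the counts of distal peaks and enhancers was -0.02, while it was 0.50 over the 446 windows of the other autosomes. Distal and promoter counts had rank correlations of 0.71 on chromosome 15 and 0.76 on the others. Windows of a chromosome share neighbours and gene content, so these values describe the map and carry no p-value.

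In windows of 1 Mb, the most distal peaks and the most enhancers lay apart. The window from 72 to 73 Mb held the most distal peaks, 28, and 2 promoter peaks and 4 enhancers. It spans the start of Col22a1, a collagen gene, the potassium channel gene Kcnk9 and part of Trappc9, a trafficking gene, and its promoter peaks, of 889 and 854 bp, lay at the non-coding gene Peg13 inside Trappc9. All 28 distal peaks were under 500 bp (200 to 423 bp), none overlapped an enhancer, 26 lay over 10 kb from a TSS, and their GC content lay between 44.0 and 51.7%. The next window, at 87 to 88 Mb around Fam19a5, held 26 distal peaks of 200 to 406 bp, again 0 on enhancers, 24 over 10 kb from a TSS and with a GC content of 43.3 to 53.0%, and 1 enhancer. The 1 Mb window with the most enhancers, 59 to 60 Mb with Nsmce2 and Trib1, held 54 enhancers, 8 distal peaks and 4 promoter peaks.

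Stretches with no peak at all could still hold enhancers. The longest ran for 2051.91 kb (chr15:23037072-25088981), beyond the promoter peak within the cadherin gene Cdh18, and held 28 enhancers. The next, 1614.58 kb (chr15:62049778-63664360), began in Pvt1 and held 67 enhancers. Within gene bodies, distal peaks were most numerous in Rbfox2, an RNA splicing factor gene (10, with 18 enhancers), Kcnq3, a potassium channel gene (8, with 2 enhancers), and Pdzrn4 (6, with 3 enhancers). Enhancers were most numerous in Ext1, a heparan sulphate polymerase gene (25, with 5 distal peaks), Nsmce2, a SUMO ligase gene (24, with 1), and Asap1 (19, with 2). Counts in a gene body grow with its length, and these 6 genes were 227.44 to 374.94 kb long.

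Myc and Pvt1 lay in a region dense in enhancers and sparse in promoter peaks. From 1 Mb before Myc to 1 Mb after Pvt1, 2392.71 kb held 91 enhancers, or 38.0 per Mb, against 17.3 per Mb for the chromosome. It held 12 peaks, of which 4 were promoter peaks and 8 were distal. Of the 91 enhancers, 4 overlapped a peak, beside 6.82% of all enhancers of chromosome 15. Promoter peaks numbered 1.67 per Mb, against 6.78 per Mb for the chromosome. The distal density, 3.34 per Mb, was below the 6.06 per Mb of the chromosome but within the 2.18 to 3.99 per Mb of the other autosomes.

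The Myc promoter peak spanned 4380 bp (chr15:61984122-61988501), covering the annotated Myc TSSs, overlapped a CpG island and 1 enhancer, and was the second widest promoter peak of the chromosome. A distal peak of 1274 bp followed inside the gene (chr15:61988755-61990028). At Pvt1, promoter peaks of 1358 and 1188 bp lay side by side at its start and distal peaks of 346, 200 and 511 bp followed, of which the last was centred 10.3 kb from the nearest TSS and overlapped an enhancer. Pvt1, which is 340.11 kb long, held 30 enhancers and no peak beyond the last of these. The 1 Mb before Myc held 29 enhancers, 1 promoter peak and 4 distal peaks of 200 to 296 bp, and the 1 Mb after Pvt1 held 27 enhancers and 0 peaks. The median width of the 91 enhancers was 429 bp. An AP-1 motif was held by 29 of them, beside 23.1% of all enhancers of chromosome 15.

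**Figure D4:**
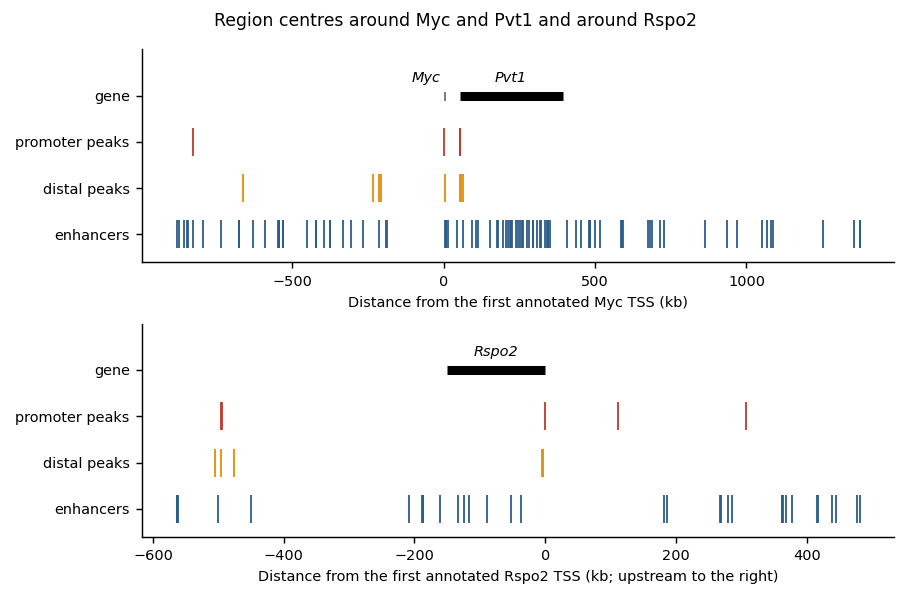
Centres of promoter peaks, distal peaks and enhancers (rows) by distance in kb from the first annotated Myc TSS (top) and the first annotated Rspo2 TSS (bottom), with gene bodies as black bars. Around Myc and Pvt1, 91 enhancers spread over the whole region while its 12 peaks lie near the starts of both genes and upstream of Myc. Around Rspo2 the 10 peaks and 33 enhancers do not overlap, and 6.82% of all enhancers of chromosome 15 overlap a peak.

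Rspo2 had a broad promoter peak in a region dense in enhancers. The gene with 500 kb on either side held 28.7 enhancers per Mb, against 17.3 per Mb for the chromosome. The peak spanned 2805 bp (chr15:43168422-43171226), overlapped a CpG island, and its centre lay 994 bp from a TSS, just inside the limit for a promoter peak. Distal peaks of 386 and 204 bp followed inside the gene at 2.95 and 4.88 kb from the most upstream TSS. The gene body of 150.03 kb held 6 enhancers, of which the nearest to the TSS, 631 bp wide and 37.5 kb away, was the widest of the 33 in the gene with 500 kb on either side. None of those 33 overlapped a peak, and few enhancers of the whole chromosome did (123 of 1803, or 6.82%). The median width of the 33 was 240 bp. An AP-1 motif was held by 5 of them, beside 23.1% of all enhancers of chromosome 15. All 4 protein-coding genes of the neighbourhood had a peak. They were Rspo2, Angpt1, a ligand of the TIE2 receptor (1330 bp), Eif3e, a translation initiation factor gene (657 bp), and Emc2, an ER membrane complex gene (581 bp).

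The Hoxc cluster had no region of either list. Across its 115.75 kb (chr15:102921103-103036852) there were 0 peaks and 0 enhancers, and none of its 9 Hoxc genes or the non-coding gene Hotair had a peak. The 50 kb on either side held 6 distal peaks of 200 to 443 bp, 0 of them on an enhancer or an island, and 0 promoter peaks. The other clusters differed among themselves. Hoxa on chromosome 6 held 40 peaks that covered 46.5% of it, Hoxd on chromosome 2 held 16 that covered 25.7%, and Hoxb on chromosome 11 held 1 peak of 262 bp.

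Genes of chromosome 15 carried H3K4me3 somewhat more often than those of the other autosomes together, at a share within the range of single autosomes. A gene counted when any base of a peak lay within 1 kb of any of its TSSs. By this count 510 of 785 protein-coding genes had a peak, or 64.97% (interval 61.6 to 68.2%). The share was 60.1% on the other autosomes together and 59.1% of the 21938 protein-coding genes of all chromosomes, X and Y included. The other autosomes ranged from 47.3 to 72.8%, with 3 above. The median of the widest peak per gene was 1371 bp, against 1258 bp on the other autosomes. In all chromosomes, 11 of 11 marker genes of fibroblasts had a peak, and so did 5 of 17 markers of other cell types. The latter differed by type, with 2 of 4 for epithelium, 2 of 3 for neurons and 1 of 3 for endothelium. None of the 3 blood, 2 skeletal muscle and 2 pluripotent cell markers had a peak.

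By function, all 17 listed genes that every cell uses had a peak, from Eif3e (657 bp) to Ywhaz, a signalling adaptor gene (3614 bp). Among chromatin genes, 13 of 14 had one, with Kmt2d (4326 bp), Ep300, an acetyltransferase gene (2060 bp), and Brd1, a histone-binding protein gene (2281 bp), and Atad2 had none. Among transcription factors, 20 of 25 had a peak, with Arid2 and Myc the widest, Trps1, a GATA-type repressor gene, at 3303 bp, and Zhx2 at 3438 bp. The narrowest of the widest peaks in this list was that of Nfe2 (501 bp). Those without were Sox10, Sp7, Foxh1, Grhl2 and Zhx1.

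Matrix and adhesion genes had a peak in 17 of 20 cases, with Itga5 (3475 bp), the Wnt-induced matrix gene Ccn4 (3114 bp), Sdc2 (2261 bp) and Ext1 (2244 bp) the widest, and Cdh6 (262 bp) and Col22a1 (200 bp) the narrowest. The 20 genes held 86 enhancers and 25 distal peaks in their bodies. Of 7 Wnt pathway genes, Rspo2 (2805 bp), Wnt10b (2653 bp), Prickle1 (1909 bp), Wnt7b (1425 bp) and Celsr1 (922 bp) had a peak, and the receptor gene Fzd6 and Wnt1 did not. Growth factors and receptors had a peak in 8 of 13 cases, or 61.5%, near the 59.1% of all protein-coding genes. The widest were at Npr3 (2792 bp), Gdnf (2745 bp) and the oncostatin M receptor gene Osmr (2459 bp). The 5 without were Il7r, Prlr, Il2rb, Csf2rb and Csf2rb2. Fgf10, also listed, is not on chromosome 15 in the annotation.

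At the other end, 0 of 26 keratin genes of the type II cluster, among them the type I gene Krt18 that lies beside it, had a peak, enhancer or distal peak in the gene body. Of the Ly6 family, 3 of 19 had a peak, namely Ly6e (1652 bp), Lynx1 (1023 bp) and the stem cell antigen gene Ly6a (657 bp). All 8 genes listed as neuronal had a peak, among them Adcy8, an adenylate cyclase gene (2067 bp), Cdh18 (1308 bp), Csmd3 (1280 bp) and Kcnq3 (495 bp). The median of their widest peaks, 919 bp, was below the 1371 bp of the chromosome, and the bodies of these genes held 13 distal peaks and 31 enhancers. The lists were drawn up with results of these data known, and they are given by their counts alone.

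**Figure D5:**
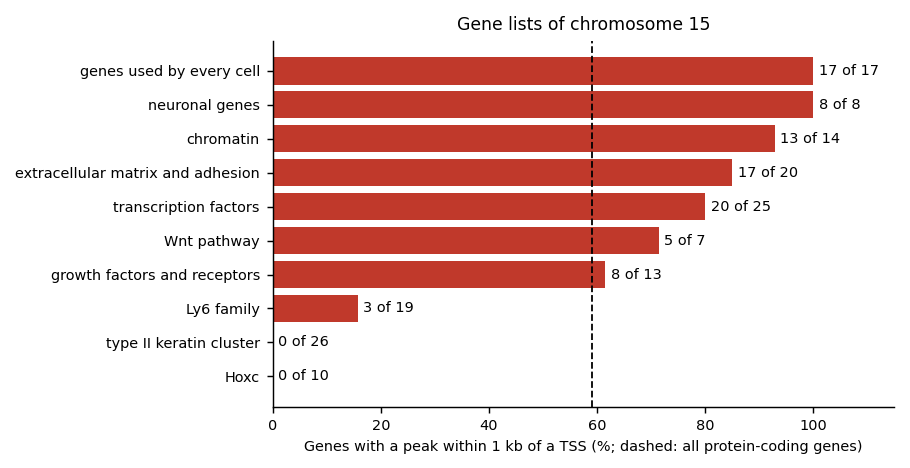
Share of each gene list of chromosome 15 with a peak within 1 kb of a TSS (x axis, percent; counts beside the bars), with the 59.1% of all protein-coding genes as a dashed line. The genes that every cell uses (17 of 17), neuronal genes (8 of 8) and chromatin genes (13 of 14) lie beyond the line, and the Ly6 family (3 of 19), the keratin cluster (0 of 26) and Hoxc (0 of 10) fall far short of it.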

How the data were processed

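H3K4me3 ChIP-seq libraries were described by the labels. Per the study's methods, the authors trimmed reads with Trim Galore, aligned them with BWA to mm10 (GRCm38.p6), merged replicates with Picard and called narrow peaks with MACS. The peaks of every sample were joined in the deposited peak list. Deposited enhancers were accessible regions with H3K27ac and H3K4me1 in cells without treatment, and per the methods regions overlapping 1 kb around TSSs were left out. Against the GENCODE TSSs used here, 1709 of the 1803 on chromosome 15 had a centre over 1 kb from a TSS. A union grows with the number and depth of libraries, and neither list gives a depth. Both lists hold chromosome, start and end, with 0 columns of values per sample, so no test was run and calls per sample were not analysed here. Peak starts were read as counting from 0 and enhancer starts from 1, from the widths. Printed positions count from 1.

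TSSs were the 132629 distinct 5′ ends of GENCODE M21 transcripts. CpG islands (16095) scored 17 per CpG and -1 per other base with repeats masked, and had at least 200 bp, GC over 50% and observed to expected CpGs over 0.6. Overlap meant 1 shared base. Motifs were searched on both strands. Chromosome 15, its neighbourhoods, gene lists and named regions (the widest peaks, extreme windows, gene bodies with most regions, longest stretch without a peak) were chosen with earlier results of these data known. Interval functions and the island caller were checked on simulated data. Scripts ran in Python 3.11.15 with pandas 2.3.3, NumPy 2.4.6, Numba 0.67.0, SciPy 1.17.1 and, for plots, Matplotlib 3.10.9. Alternatives were other TSS sets, limits, widths, merging, denominators, windows and whole-peak motif searches.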

Additional observations from a re-analysis of the deposited data

How the results depend on the processing

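Of 62 alternative values, 44 stayed within the Wilson interval of a share, 1.5 times a count or ratio, or the spread of the widths, and 18 moved beyond it. The density of distal peaks on chromosome 15 stayed above every other autosome in 9 of 10 alternatives. The exception was peaks of at least 500 bp, which left 88 distal peaks at 0.846 per Mb, under the highest other autosome at 1.17, with a distal share of 14.1%, 0.164 distal peaks per promoter peak, a median width of 784 bp and 34.1% on enhancers. The distal share was 52.8% with protein-coding transcripts, 57.6% with 1 TSS per gene, 36.4% with a limit of 3 kb and 44.5% when no base could lie within 1 kb. Distal peaks per promoter peak were 1.36 with 1 TSS per gene and 0.572 with 3 kb. Outside gaps and masked repeats, distal peaks reached 9.30 and enhancers 26.6 per Mb, above the other autosomes on the same scale (at most 6.23 and 25.6). Without its 5 Mb window of the highest count, chromosome 15 held 16.6 enhancers per Mb, barely above the highest other autosome (16.4). Distal peaks without their highest window numbered 5.725 per Mb, against at most 3.99. The other autosomes kept all their windows. The lowest window held 2.20 distal peaks per Mb with windows shifted by 2.5 Mb and 2.30 with windows of 10 Mb. Searching whole peaks gave an E-box in 6.82% and an EGR1 motif in 0.634% of distal peaks. No paired analysis was possible because replicates were joined in both lists, and leaving out a replicate was not run for the same reason.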
